A study of Mus musculus with 15 samples.

Results

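Genes of the proteasome, its activators and its assembly chaperones were examined in BALB/c mice, in lungs and kidneys with and without fibrosis. The genes were those whose symbol in the array annotation begins with Psma, Psmb, Psmc, Psmd, Psme, Psmf or Psmg and that had a probe above background (detection p under 0.01) in at least 2 samples. Of 49 such symbols, 41 passed this filter, out of 11648 genes tested in all, and each gene was read from its probe with the highest mean signal. Total RNA was measured on Illumina arrays in 5 groups: lung of mice given bleomycin into the trachea (bleomycin lung, n = 3), lung of mice with kidney fibrosis from unilateral ureteral obstruction, the closure of 1 ureter (UUO; UUO-mouse lung, n = 3), healthy lung (n = 3), kidney after UUO (UUO kidney, n = 2) and healthy kidney (n = 3). Each sample has an animal number in the labels, and the replicates of a group came from different mice, although 4 mice gave both organs. The labels give no age, sex or time after injury, and whole organs were used, so that fewer cells of a type and less RNA per cell cannot be told apart in any value below.

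The proteasome degrades proteins marked with ubiquitin. Its core, the 20S particle, is a barrel of alpha and beta rings, and the peptide bonds are cut by the beta subunits Psmb5, Psmb6 and Psmb7. In cells exposed to interferon gamma, and constitutively in many leukocytes, these are replaced during assembly by Psmb8 (for Psmb5), Psmb9 (for Psmb6) and Psmb10 (for Psmb7), which gives the immunoproteasome, known for producing peptides for MHC class I presentation. The 19S particle, with a base of Psmc ATPases and a lid of Psmd subunits, binds, unfolds and de-ubiquitinates substrates, while Psme1 with Psme2, Psme3 and Psme4 are alternative activators that open the core.

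The 41 measured genes comprised 3 immunoproteasome subunits, 11 of 14 constitutive 20S subunits, 15 of 17 listed subunits of the 19S particle, 3 chaperones of 19S assembly, 3 of 4 chaperones of 20S assembly, 4 activators, and Psmc3ip and Psme3ip1, which carry the prefix but are not subunits. The other 8 symbols (Psma1, Psma3, Psma6, Psma8, Psmb11, Psmc6, Psmd3 and Psmg4) had no probe above background in 2 samples and were left out, and Psmf1, an inhibitor, was not analysed here. In all, 37 genes were above background in every sample. The other 4 were Psmb9, Psmd2, Psmd5 and Psmd6, whose low values are marked where they are used.

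All 9 lungs had 5 of 5 defining lung transcripts and all 5 kidneys 5 of 5 measured defining kidney transcripts above background. Some libraries held transcripts of another organ. The 7 measured liver transcripts were all above background in healthy lung replicate 3 (mean log2 signal 12.04) and UUO-mouse lung replicate 1 (10.07), against at most 2 of 7 and 4.59 to 4.87 in the other lungs, and 1 or 2 of 7 in UUO kidneys and 4 to 6 of 7 in healthy kidneys. Kidney transcripts reached 4 of 5 in bleomycin lung replicate 1, and lung transcripts 3 of 5 in both UUO kidneys, against 0 or 1 in healthy kidneys. Results are given below also without these 3 lungs, and the part of the lung transcripts in the UUO kidneys was not tested. The tissue field of healthy kidney replicate 1 names the lung, against its title and its 5 kidney transcripts. Between 32.4% and 41.5% of probes were above background on an array, and the median raw signal was 95.2 to 125.1. Values below are normalized log2 signals, and p-values are from limma with Benjamini-Hochberg adjustment over all 11648 genes.

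The promoter windows of 6 of the measured genes are as follows (RefSeq, GRCm38.p6). They run from 250 bases before to 50 after the gene's start, 5′ to 3′ on the gene's strand. Capitals mark a match to 1 of 3 motifs searched on both strands: the core of the interferon response element (GAAANNGAAA, N any base), the gamma activated site (TTCNNNGAA), and the core of the antioxidant response element (TGACNNNGC).
Psmb8, chr17:34197945-34198244, plus strand: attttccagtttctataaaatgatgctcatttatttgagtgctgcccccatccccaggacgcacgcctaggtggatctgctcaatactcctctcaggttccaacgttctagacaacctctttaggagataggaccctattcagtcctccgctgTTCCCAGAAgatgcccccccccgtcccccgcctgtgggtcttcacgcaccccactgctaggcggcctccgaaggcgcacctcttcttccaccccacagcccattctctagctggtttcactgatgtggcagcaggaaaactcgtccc
Psmb9, chr17:34187281-34187580, minus strand: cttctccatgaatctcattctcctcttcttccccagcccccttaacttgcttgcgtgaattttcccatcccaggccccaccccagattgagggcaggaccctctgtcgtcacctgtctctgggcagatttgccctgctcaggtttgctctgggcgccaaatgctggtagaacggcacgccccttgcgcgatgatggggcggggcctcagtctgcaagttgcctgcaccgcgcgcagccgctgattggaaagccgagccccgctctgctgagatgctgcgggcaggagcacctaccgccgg
Psme1, chr14:55578244-55578543, plus strand: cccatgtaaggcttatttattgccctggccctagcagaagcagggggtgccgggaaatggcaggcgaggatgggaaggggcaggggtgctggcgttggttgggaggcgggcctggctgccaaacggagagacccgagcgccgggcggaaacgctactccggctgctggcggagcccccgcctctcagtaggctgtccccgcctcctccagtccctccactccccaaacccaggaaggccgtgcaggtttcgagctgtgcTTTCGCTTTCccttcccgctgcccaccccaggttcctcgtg
Psmb5, chr14:54617946-54618245, minus strand: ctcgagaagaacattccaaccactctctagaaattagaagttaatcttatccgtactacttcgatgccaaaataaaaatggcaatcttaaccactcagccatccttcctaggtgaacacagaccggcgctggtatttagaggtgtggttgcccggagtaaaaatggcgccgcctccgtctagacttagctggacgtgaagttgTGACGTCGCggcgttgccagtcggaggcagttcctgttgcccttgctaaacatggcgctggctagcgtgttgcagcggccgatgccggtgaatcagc
Psmb6, chr11:70525107-70525406, plus strand: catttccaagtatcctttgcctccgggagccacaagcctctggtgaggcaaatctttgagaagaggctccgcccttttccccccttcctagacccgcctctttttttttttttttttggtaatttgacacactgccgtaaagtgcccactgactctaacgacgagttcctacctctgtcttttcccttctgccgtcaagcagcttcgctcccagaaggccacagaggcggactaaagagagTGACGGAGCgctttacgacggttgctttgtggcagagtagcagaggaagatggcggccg
Psmd12, chr11:107479278-107479577, plus strand: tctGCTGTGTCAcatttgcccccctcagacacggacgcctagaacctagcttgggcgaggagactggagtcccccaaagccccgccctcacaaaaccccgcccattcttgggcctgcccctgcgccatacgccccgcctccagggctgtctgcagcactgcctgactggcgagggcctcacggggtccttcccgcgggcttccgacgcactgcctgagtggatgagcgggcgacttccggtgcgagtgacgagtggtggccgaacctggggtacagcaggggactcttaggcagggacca

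Psmb8 held a gamma activated site, Psme1 an interferon response core, and Psmb5, Psmb6 and Psmd12 an antioxidant response core, with no overlap between motifs. The Psmb9 window held none of the 3, and neither did those of Psmb10 and Psmd5, which are not printed. The Psmb9 window shares 275 bases with the window of Tap1, the peptide transporter gene that starts on the opposite strand (chr17:34187306-34187605). Of the 35 measured genes with a window in the table, 4 held the interferon response core (11.4%, against 3.99% of 27025 windows of all genes), 3 the gamma activated site (8.57% against 9.55%) and 5 the antioxidant response core (14.3% against 14%). The interferon response core was held by Psmb3, Psmd4, Psmd9 and Psme1, and the gamma activated site by Psmb8, Psmd2 and Psmg1. Psmb5, Psmb6, Psmd12, Psmd9 and Psme4 held the antioxidant response core. Each motif was thus found in constitutive proteasome genes or their chaperones too. These matches describe letters in the window only.

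In bleomycin lung, most constitutive proteasome genes rose while Psmb10 fell. In all, 26 of 41 genes rose, against 21.3% of all genes tested, and 3 fell, against 21.8%. The median log2 change of the 41 genes was 0.46, against -0.04 over all genes. The samples of bleomycin lung and healthy lung did not overlap in 32 of the 41 genes, and in 56.2% of all genes.

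Of the constitutive 20S subunits, 10 of 11 rose in bleomycin lung, with changes from 0.43 for Psmb5, which did not pass, to 1.51 for Psmb1. Psmb1, a beta subunit without catalytic activity, had values of 11.76, 12.06 and 11.54 in bleomycin lung, against 10.36, 10.7 and 9.77 in healthy lung. Every bleomycin lung lay above every healthy lung, and the change was 1.51 ± 0.25 (SE), or 2.85-fold (adjusted p = 0.000603). Psmb7, the subunit with trypsin-like activity, had 11.69, 12.01 and 11.8 in bleomycin lung, against 10.94, 10.89 and 11.16 in healthy lung, a rise of 0.84 ± 0.15 (adjusted p = 0.000746). Psmb6, which carries the caspase-like activity, had 11.68, 11.84 and 11.94, against 11.39, 11.27 and 11.42 in healthy lung, and rose by 0.46 ± 0.13 (adjusted p = 0.0109). In both genes the groups did not overlap. Psmb5, with chymotrypsin-like activity, had 8.01, 8.08 and 7.36 in bleomycin lung and 7.5, 7.54 and 7.12 in healthy lung. These values overlapped, and the change of 0.43 ± 0.23 did not pass (adjusted p = 0.163), although it did after median scaling (0.76, adjusted p = 0.0294) and in the matrix values (1.01, adjusted p = 0.00293). All 4 measured subunits of the alpha ring, the gate of the core, rose, from Psma4 (0.45) to Psma7 (0.80).

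Of the 19S subunits, 9 of 15 rose in bleomycin lung and none fell, also at an unadjusted p under 0.05 in limma. The lid moved most, with 5 of 7 subunits higher and a median change of 0.73. Psmd12, a scaffold subunit of the lid, had 10.66, 10.71 and 10.72 in bleomycin lung, against 9.2, 9.28 and 9.36 in healthy lung. Its rise was 1.42 ± 0.13, or 2.67-fold (adjusted p = 1.56e-05), with a gap between the groups far wider than the spread within either. Psmd14, the deubiquitinase of the lid, had 9.2, 9.47 and 9.33, against 8.17, 7.53 and 8.29 in healthy lung (1.34 ± 0.23, adjusted p = 0.000719). Psmd11, another lid scaffold, rose by 1.10 ± 0.23 (adjusted p = 0.00239). In the base, 3 of 5 ATPases rose, Psmc1 by 1.02 ± 0.13 (adjusted p = 8.73e-05). The assembly chaperones of the 19S particle, which help to build the base and are not part of the finished particle, all 3 rose. Psmd5 had the highest change of the 41 genes, with 7.39, 7.55 and 7.64 in bleomycin lung against 5.49, 5.51 and 5.3 in healthy lung, where 2 of 3 samples were above background. The rise was 2.10 ± 0.19, or 4.27-fold (adjusted p = 1.56e-05). It passed in all 29 alternatives, but its size was 1.04 without background correction and 2.98 in the matrix values. Of the 20S assembly chaperones, Psmg1 (0.74 ± 0.18) and Psmg3 (0.43) rose and Psmg2 did not pass (-0.05). The smallest rises that passed were those of Psmd10 (0.33) and Psmc3 (0.39).

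**Figure D1:**
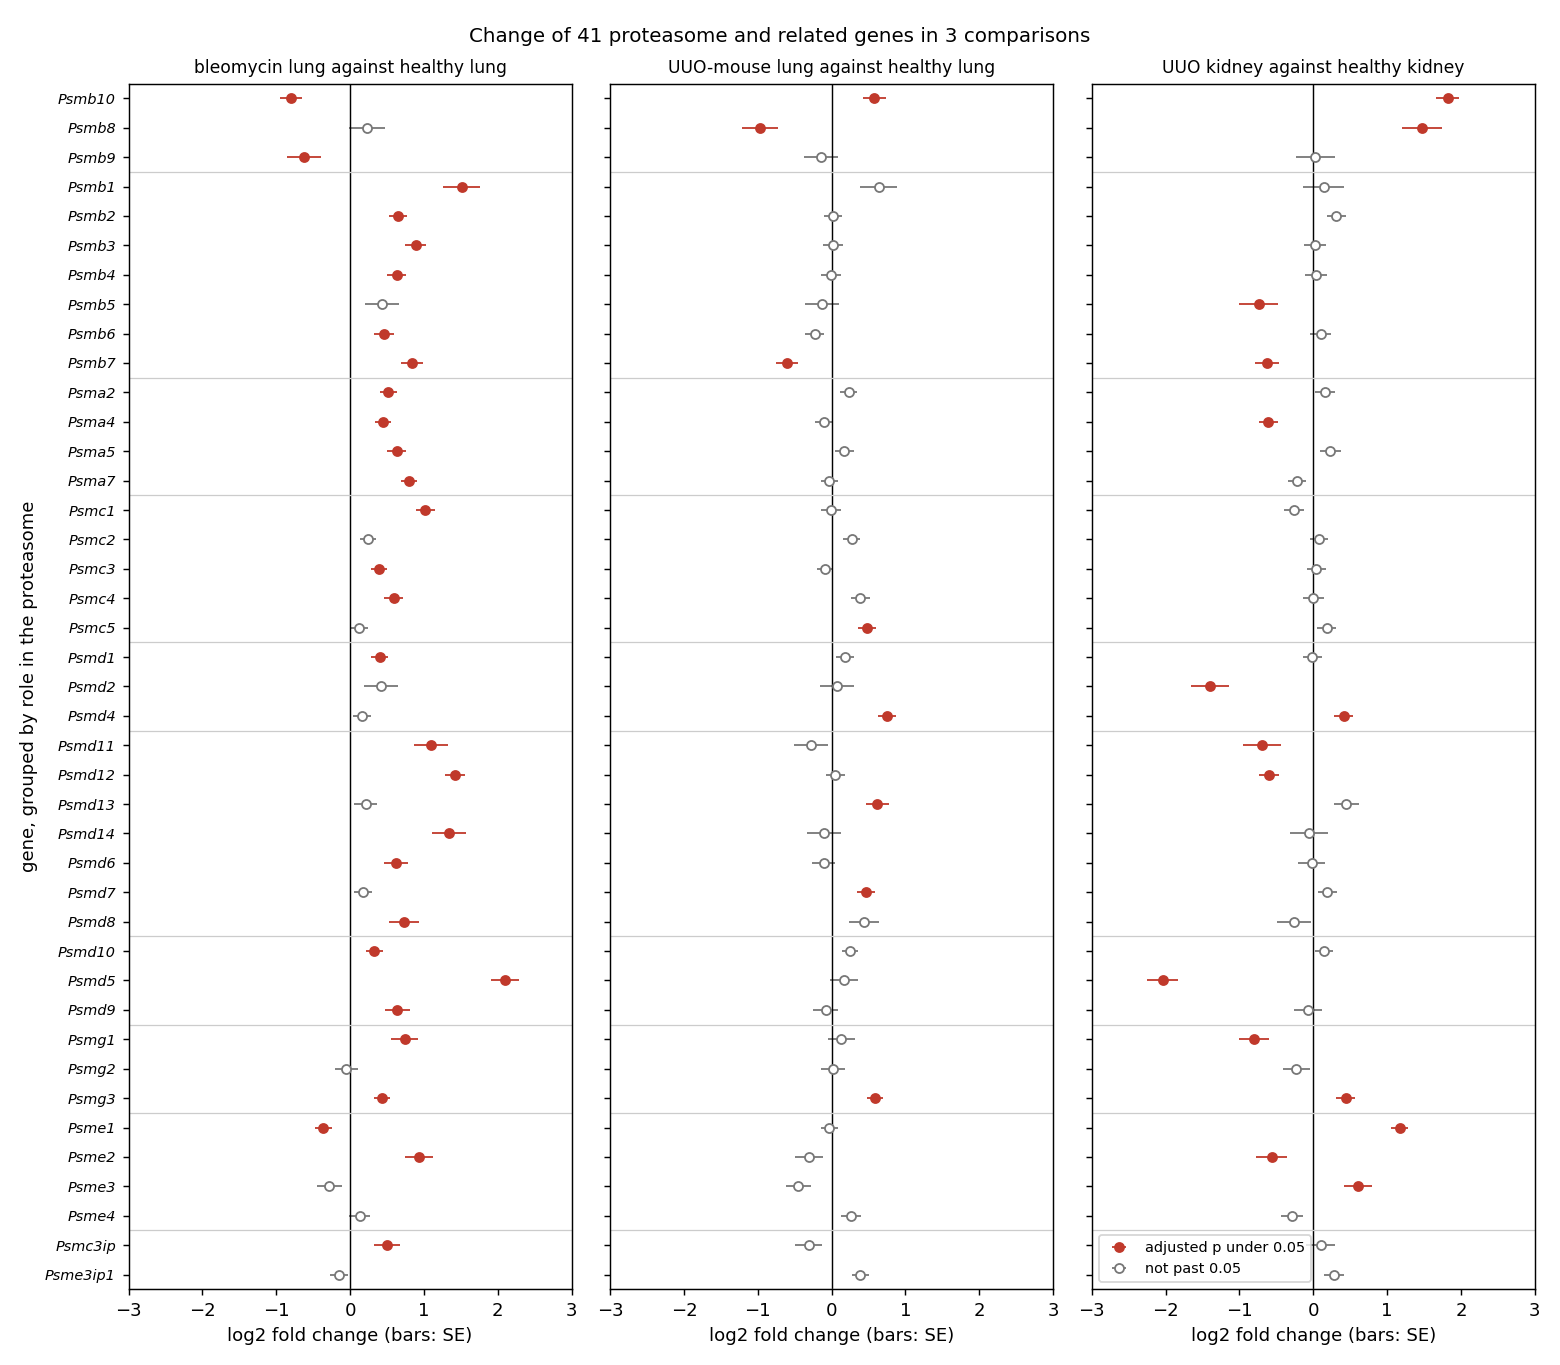
Log2 fold changes (x axis, points with SE bars) of the 41 genes, in rows grouped by role, for bleomycin lung and UUO-mouse lung against healthy lung and UUO kidney against healthy kidney; filled points passed an adjusted p under 0.05. In bleomycin lung 26 points are filled on the right and 3 on the left, in UUO-mouse lung 6 and 2, and in UUO kidney 6 and 9. Psmd2 in UUO kidney is drawn at its fitted value, although it has only a bound there. Fitted values are drawn also for Psmb9 in UUO kidney and Psmd2 in UUO-mouse lung, where neither group compared was above background. The same holds for Psmd2 in bleomycin lung, where healthy lung was not above background.

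None of the 3 immunoproteasome genes rose in bleomycin lung (limma, 0 also at an unadjusted p under 0.05), and 2 of them fell. Psmb10 had 9.67, 10.01 and 10.09 in bleomycin lung, against 10.67, 10.73 and 10.78 in healthy lung, and its log2 level fell by 0.80 (SE 0.15), which passed at adjusted p = 0.000982. All 3 bleomycin lungs lay below all 3 healthy lungs. Psmb9 had 5.16, 5.32 and 5.49, against 6.07, 5.92 and 5.88 in healthy lung, close to background in both groups and above it in 2 of 3 bleomycin lungs, and its fall of 0.63 (SE 0.23) only just passed (adjusted p = 0.0456), a call lost in 15 of 29 alternatives, with values from -0.71 to -0.13. Psmb8 had 9.58, 9.6 and 10.46 in bleomycin lung and 9.63, 9.42 and 9.89 in healthy lung, which overlapped, and its change of 0.23 ± 0.24 did not pass (adjusted p = 0.45), although with the matrix values it did (0.77, adjusted p = 0.0175). With each array scaled to a common median, the median of all genes was at 0.23 and Psmb10 fell by 0.40 (adjusted p = 0.0543). With the deposited matrix values, the median of all genes was at 0.51 and Psmb10 stood at -0.22 (adjusted p = 0.241), so its call was lost in both. Relative to the median of all genes, Psmb10 was lower by a similar amount, at -0.64 and -0.73.

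The activators split in bleomycin lung. Psme2, the beta subunit of the interferon-inducible PA28 activator, had 8.71, 9.22 and 9.09, against 7.95, 7.97 and 8.31 in healthy lung, and rose by 0.93 ± 0.19 (adjusted p = 0.00189). Its partner Psme1, the alpha subunit of the same ring, had 11.59, 11.66 and 11.66, against 12.1, 11.98 and 11.93 in healthy lung, and fell by 0.36 (SE 0.11, adjusted p = 0.0178). That fall depends on the probe and on the scaling, since a second kept probe of Psme1 showed a change of 0.31 ± 0.12 (adjusted p = 0.0461), and the first probe stood at 0.03 after median scaling and at 0.21 in the deposited matrix values. Psme3, a nuclear activator, had a change of -0.28 (adjusted p = 0.213) and Psme4, an activator that works without ATP, one of 0.13 (adjusted p = 0.48).

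Other transcripts moved with these results in bleomycin lung. All 4 measured T cell markers, all 3 natural killer markers and both measured B cell markers fell. Of the 8 pan-leukocyte markers, however, 3 rose and none fell (limma, 1 lower at an unadjusted p under 0.05). The mean log2 level of the T cell markers was 5.32 to 5.77 in the bleomycin group, against 7.16 to 7.66 in the healthy group, and that of the natural killer markers was 6.06 to 6.12 in bleomycin lung, against 7.64 to 8.22 in healthy lung. In macrophage markers, 5 of 7 rose, with a mean level of 9.8 to 10.31 in bleomycin lung, against 8.51 to 8.72 in healthy lung, and all 3 measured proliferation markers rose (7.91 to 8.15 in bleomycin lung, against 5.35 to 5.49 in healthy lung). Of the 6 endothelial markers 4 fell, with a mean level of 9.09 to 9.22 in bleomycin lung, against 10.05 to 10.23 in healthy lung. The part of these cells in the proteasome results was not tested. Without healthy lung replicate 3, UUO-mouse lung replicate 1 and bleomycin lung replicate 1, 21 genes rose and 1 fell, the fall of Psmb9 (-0.59, adjusted p = 0.165) and that of Psme1 (-0.38, adjusted p = 0.101) no longer passing. In the same fit 10 of 11 constitutive 20S subunits rose.

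In UUO kidney, the immunoproteasome genes Psmb10 and Psmb8 and the activator Psme1 rose while most constitutive genes did not pass. In all, 6 of 41 genes rose, against 26% of all genes, and 9 fell, against 16.9%. The median log2 change was 0.03, against 0.12 over all genes, and the groups did not overlap in 26 of the 41 genes and in 63.1% of all genes. These shares of calls lie below the share over all genes for rises and above it for falls.

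Psmb10 had 10.45 and 10.59 in UUO kidney, against 8.82, 8.54 and 8.76 in healthy kidney, a rise of 1.82 ± 0.16, or 3.52-fold (adjusted p = 6.55e-06). Psmb8 had 9.16 and 9.39, against 7.9, 7.75 and 7.77 in healthy kidney, and rose by 1.47 ± 0.27, or 2.77-fold (adjusted p = 0.000911). For both genes the lower UUO kidney stood over 1 log2 unit above the highest healthy kidney. Psmb9 was not above background in any of the 5 kidneys, so no change can be given. Psme1 had 11.99 and 11.94, against 10.87, 10.65 and 10.88 in healthy kidney, and rose by 1.17 ± 0.12 (adjusted p = 1.92e-05). Its partner Psme2 did the reverse, with 8.08 and 8.39 in UUO kidney against 9.05, 8.58 and 8.77 in healthy kidney, and a fall of 0.56 (SE 0.21, adjusted p = 0.0468) that was lost in 14 of 29 alternatives. Psme3 had 10.17 and 10.01, against 9.28, 9.45 and 9.73, and rose by 0.60 ± 0.19 (adjusted p = 0.0235). Psme4 did not pass (-0.29, adjusted p = 0.146).

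Among constitutive 20S subunits, none of 11 rose in UUO kidney (limma, 1 at an unadjusted p under 0.05) and 3 fell, with a median of 0.04. Psmb7 had 11.41 and 11.21, against 12.04, 11.79 and 11.99 in healthy kidney, and fell by 0.63 (SE 0.16, adjusted p = 0.00787). Its further kept probes stood at -1.62, -1.01 and 0.12, the last of which did not pass (limma, adjusted p = 0.646). Psmb5 had 8.08 and 7.6, against 8.73, 8.86 and 8.15, and fell by 0.74 (SE 0.26, adjusted p = 0.0381), a call lost in 8 of 29 alternatives. Psmb6 showed no change past the threshold (0.10, adjusted p = 0.63), with 11.86 and 11.68 in UUO kidney and 11.57, 11.81 and 11.64 in healthy kidney. The alpha ring subunit Psma4 fell by 0.61 (SE 0.13, adjusted p = 0.00206).

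Of the 19S subunits, 3 of 15 fell and Psmd4, a ubiquitin receptor, rose (0.41 ± 0.13, adjusted p = 0.0258; 0.0568 without the 3 lungs). Psmd12 fell by 0.60 (SE 0.14, adjusted p = 0.00515), and Psmd11 by 0.69 (SE 0.26, adjusted p = 0.0472), a call lost in 15 of 29 alternatives. Psmd2, a large scaffold subunit of the base, was above background in no UUO kidney and in all 3 healthy kidneys. Under the processing used here it was at least 2.33-fold lower in UUO kidney (adjusted p = 0.00107). Over the alternatives its fitted log2 change ranged from -1.8 to -0.58. The chaperone Psmd5 had 5.95 and 5.3 in UUO kidney, where 1 of 2 samples was above background, against 7.85, 7.67 and 7.46 in healthy kidney. Its fall of 2.04 (SE 0.21), or 4.1-fold (adjusted p = 1.71e-05), ranged from 1.05 without background correction to 2.43 in the matrix values. Psmg1, a chaperone of alpha ring assembly, had 8.65 and 7.95, against 9.08, 9.16 and 9.07, and fell by 0.80 (SE 0.20, adjusted p = 0.00745), while Psmg3, another chaperone of 20S assembly, rose by 0.44 ± 0.13 (adjusted p = 0.0154).

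With 2 UUO kidneys, the error of these values rests on the spread pooled over the 5 groups. Without UUO kidney replicate 2, 3 genes rose and 4 fell, and Psmb10, Psmb8 and Psme1 passed in each of the 29 alternatives. Leukocyte transcripts moved with the rise: 6 of 8 pan-leukocyte markers rose, with a mean level of 8.48 and 8.51 in UUO kidneys and 6.61 to 6.79 in healthy kidneys, as did 7 of 7 macrophage markers (8.78 and 9.16 in UUO kidneys, 6.22 to 6.52 in healthy kidneys) and 3 of 3 natural killer markers. All 3 measured proliferation markers rose as well (6.98 and 8.14 in UUO kidneys, 5.01 to 5.66 in healthy kidneys), and 3 of 6 endothelial markers rose and 1 fell. Of the T cell markers 2 of 4 rose, and neither of the 2 B cell markers passed. The part of these cells was not tested. Ptprc, the leukocyte antigen CD45, was not above background in either kidney group.

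**Figure D2:**
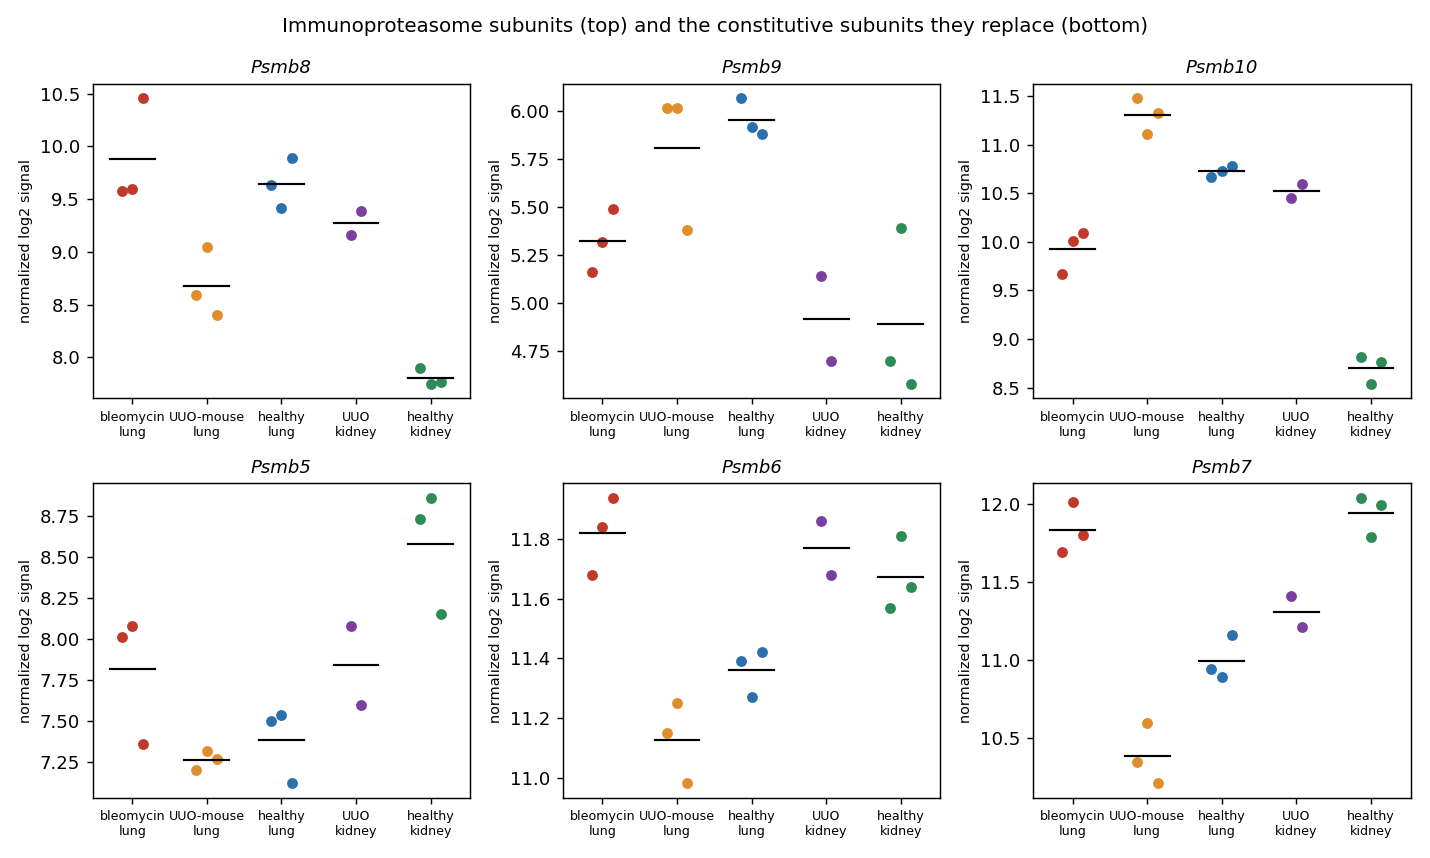
Normalized log2 signal (y axis) of Psmb8, Psmb9 and Psmb10 (top) and of Psmb5, Psmb6 and Psmb7 (bottom) in each sample of the 5 groups (points), with group means (lines); each panel has its own axis. Psmb10 reads 10.45 and 10.59 in UUO kidneys against 8.54 to 8.82 in healthy kidneys, and 9.67 to 10.09 in bleomycin lungs against 10.67 to 10.78 in healthy lungs.

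In UUO-mouse lung, Psmb10 rose while Psmb8 and Psmb7 fell, in a comparison with few calls. Of the 41 genes, 6 rose, against 5.81% of all genes, and 2 fell, against 5.05%. The median change was 0.02, against 0.05 over all genes, and the groups did not overlap in 20 of 41 genes and in 35.7% of all genes. This comparison uses the same 3 healthy lungs as that of bleomycin lung. Psmb10 had 11.48, 11.11 and 11.32 in UUO-mouse lung, against 10.67, 10.73 and 10.78 in healthy lung (0.58 ± 0.15, adjusted p = 0.0293). Psmb8 had 8.59, 9.05 and 8.4, against 9.63, 9.42 and 9.89, and fell by 0.97 (SE 0.24, adjusted p = 0.0272), but its second kept probe stood at 0.21. Psmb7 had 10.35, 10.6 and 10.21, against 10.94, 10.89 and 11.16 in healthy lung, and fell by 0.61 (SE 0.15, adjusted p = 0.0232). For these 3 genes no sample of UUO-mouse lung lay within the range of healthy lung.

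The largest rise in UUO-mouse lung was that of Psmd4, with 13.06, 12.8 and 13.05, against 12.28, 12.28 and 12.1 in healthy lung (0.75 ± 0.12, adjusted p = 0.00523). Psmd13, a lid subunit (0.62 ± 0.15), Psmg3 (0.59 ± 0.11), the ATPase Psmc5 (0.48 ± 0.12) and the lid subunit Psmd7 (0.47 ± 0.12) also rose. Further kept probes went the other way, for Psmd7 at -1.11 and -0.50, which passed, and for Psmc5 at -0.37, which did not. The calls of Psmd7 and Psmc5 were lost in 11 and 10 of 29 alternatives. Psmb9 (-0.14, adjusted p = 0.739), Psmb5 (-0.13, adjusted p = 0.775), Psmb6 (-0.23, adjusted p = 0.249), Psme1 (-0.03, adjusted p = 0.893), Psme2 (-0.31, adjusted p = 0.309), Psme3 (-0.45, adjusted p = 0.107) and Psme4 (0.26, adjusted p = 0.24) did not pass. Without the 3 lungs with transcripts of another organ none of the 8 calls passed (limma, 6 higher and 3 lower at an unadjusted p under 0.05), with Psmb10 at 0.52 (adjusted p = 0.156) and Psmb8 at -0.80 (adjusted p = 0.192). With median scaling no gene rose (limma, 1 at an unadjusted p under 0.05) and 4 fell. Natural killer markers moved in this comparison too (2 of 3 rose), as did pan-leukocyte markers (2 of 8 rose). Of 7 macrophage markers 2 rose and 1 fell, and no T cell or B cell marker passed. The part of these markers was not tested.

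In healthy kidney, the immunoproteasome genes and Psme1 stood lower than in healthy lung and many constitutive genes stood higher. In all, 20 of 41 genes were higher, against 29.8% of all genes, and 4 were lower, against 36.9%. The median change was 0.31, against -0.14 over all genes, and the groups did not overlap in 30 of 41 genes and in 73.9% of all genes. Psmb10 was lower in healthy kidney, at 8.82, 8.54 and 8.76 against 10.67, 10.73 and 10.78 in healthy lung, a log2 difference of -2.02 ± 0.15, or 4.06-fold (adjusted p = 1.36e-07). Psmb8 had 7.9, 7.75 and 7.77 in healthy kidney, against 9.63, 9.42 and 9.89 in healthy lung (-1.84 ± 0.24, adjusted p = 2.33e-05), and Psme1 had 10.87, 10.65 and 10.88, against 12.1, 11.98 and 11.93 (-1.20 ± 0.11, adjusted p = 1.08e-06). Psmb9, not above background in kidney, was at least 1.15-fold lower there (adjusted p = 0.00149). These 4 were the only genes of the 41 called lower. Both organs came from the same mice, a pairing that the main fit did not use. With the animal as a random block, 21 genes were higher and 5 lower. The leukocyte markers went the same way, with 7 of 8 pan-leukocyte markers lower in healthy kidney, and their part was not tested.

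Of the constitutive 20S subunits, 7 of 11 were higher in healthy kidney and none was lower (limma, 0 also at an unadjusted p under 0.05). Psmb5 (1.19 ± 0.23, adjusted p = 0.000657), Psmb1 (1.16 ± 0.25, adjusted p = 0.00147), Psma4 (0.97 ± 0.11, adjusted p = 8.87e-06) and Psmb7 (0.94 ± 0.15, adjusted p = 9.96e-05) were among those higher, and Psmb6 was by less (0.31 ± 0.13, adjusted p = 0.0428), a call lost in 10 of 29 alternatives. Psmd5 was 4.68-fold higher (2.23 ± 0.19, adjusted p = 5.69e-07; 1.13 to 2.83 over the alternatives) and Psmg1 3.62-fold higher (1.85 ± 0.18, adjusted p = 2.19e-06). Under the processing used here Psmd2 was at least 2.66-fold higher in healthy kidney (adjusted p = 5.02e-05), since no healthy lung was above background. Over the alternatives its fitted log2 difference ranged from 0.66 to 2.43. Psme2 (0.72 ± 0.19, adjusted p = 0.00446) and Psme4 (0.34 ± 0.14, adjusted p = 0.0454) were higher, the call of Psme4 being lost in 11 of 29 alternatives, and Psme3 did not pass (-0.40, adjusted p = 0.0568).

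The effect of bleomycin in the lung and that of UUO in the kidney, which share no control samples, were set against each other in the same fit. The control samples of the 2 organs came from the same mice. The difference between the effects (bleomycin in lung minus UUO in kidney) passed for 22 of 41 genes, 18 with a higher and 4 with a lower value in the lung, against 17.9% and 27.1% of all genes. It reached 4.13 ± 0.28 for Psmd5, 2.01 ± 0.19 for Psmd12 and 1.79 ± 0.35 for Psmd11 on the positive side (adjusted p = 1.99e-06, 1.38e-05 and 0.00136), and -2.62 ± 0.22 for Psmb10, -1.53 ± 0.16 for Psme1, -1.23 ± 0.36 for Psmb8 and -0.88 ± 0.26 for Psme3 on the negative side (adjusted p = 7.77e-06, 3.05e-05, 0.0147 and 0.015). In all, 7 genes (Psma4, Psmb7, Psmd11, Psmd12, Psmd5, Psme2 and Psmg1) rose in bleomycin lung and fell in UUO kidney, and 2 (Psmb10 and Psme1) did the reverse. Psmg3 rose in both, and no gene fell in both. Of these calls, the fall of Psme1 in bleomycin lung depended on the probe and on the scaling. That of Psmb10 was lost with median scaling and with the matrix values. In UUO kidney the falls of Psmd11 and Psme2 were lost in 15 and 14 of 29 alternatives. Of the 7 constitutive 20S subunits whose difference passed, all were higher in the lung. The value for Psmd5 ranged from 2.09 to 5.41 over the alternatives. Without the 3 lungs, 14 differences were higher and 3 lower, and those of Psmb8 (-0.96, adjusted p = 0.0777) and Psmb5 (0.93, adjusted p = 0.0884) no longer passed.

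**Figure D3:**
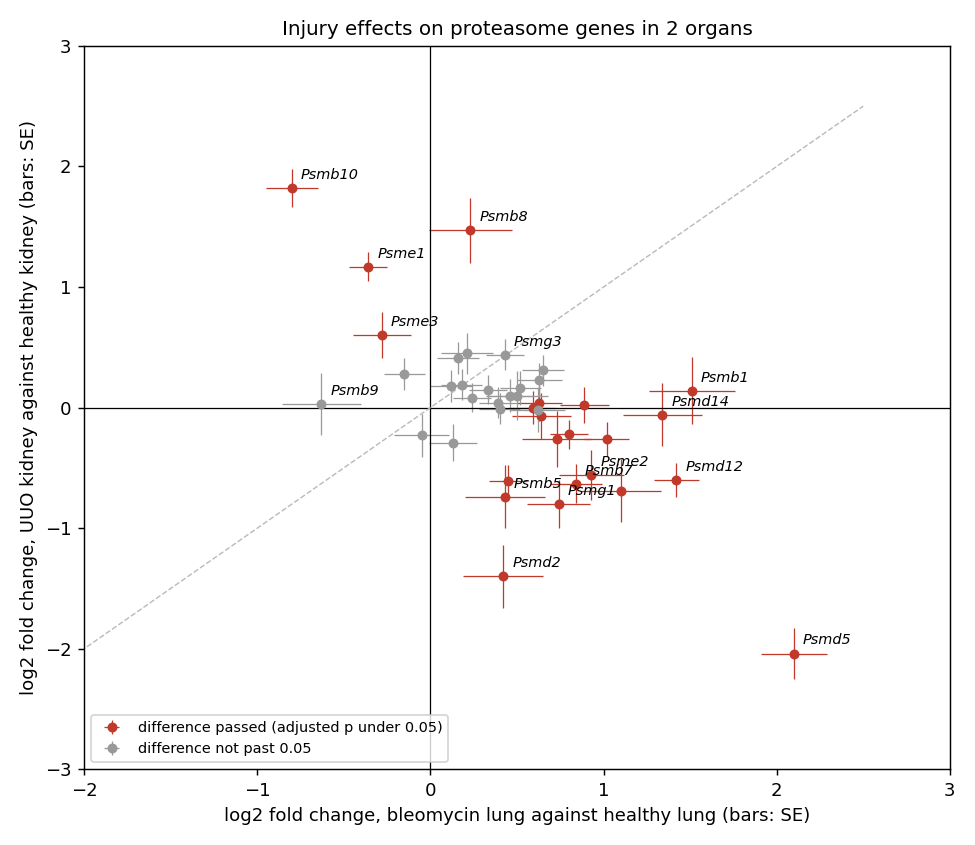
Log2 fold change in bleomycin lung (x axis) and in UUO kidney (y axis), each against the healthy organ, for the 41 genes, with SE bars; coloured points passed the test of the difference and the dashed line marks equal effects. Psmd5 lies at the lower right (2.10 and -2.04) and Psmb10 at the upper left (-0.80 and 1.82). Psmb9, not above background in any kidney, and Psmd2, above it in no healthy lung and no UUO kidney, are drawn at their fitted values.

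The RNA of each immunoproteasome subunit was set against that of its constitutive counterpart, as the difference of their log2 signals in a sample. The mean of that difference in the healthy samples of the organ was subtracted, so that only changes and no levels of the 2 probes are compared. Whether subunits were exchanged in proteasomes was not measured. Psmb10 over Psmb7 stood at -1.76, -1.73 and -1.43 in bleomycin lung, against 0, 0.11 and -0.11 in healthy lung, a shift of -1.64 (SD 0.18 and 0.11), or 3.12-fold towards Psmb7. In UUO kidney it stood at 2.28 and 2.62, against 0.01, -0.01 and 0 in healthy kidney, a shift of 2.45 (SD 0.24 and 0.01), or 5.46-fold towards Psmb10. In UUO-mouse lung it stood at 1.41, 0.79 and 1.38, a shift of 1.19 from the same healthy lungs. None of these groups overlapped with its healthy counterpart. With the second kept probes the shift was -2.38 in bleomycin lung and 3.51 in UUO kidney. Of the kept Psmb7 probes, the second had the largest change in both, and the dimmest did not fall in UUO kidney (0.12).

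Psmb8 over Psmb5 shifted by 2.20 (SD 0.50 and 0.37) in UUO kidney, with 1.85 and 2.56 against -0.06, -0.34 and 0.39 in healthy kidney. In bleomycin lung it stood at -0.68, -0.74 and 0.84, against -0.13, -0.38 and 0.51 in healthy lung. These values overlapped, with replicate 3 apart from the other two, and the shift of -0.19 gave p = 0.7 in the exact 2-sided permutation test. In UUO-mouse lung it shifted by -0.84, which turned to 0.34 with the second kept probes. Psmb9 over Psmb6 stood at -1.11, -1.11 and -1.05 in bleomycin lung, against 0.09, 0.05 and -0.14 in healthy lung, a shift of -1.09 (SD 0.04 and 0.12), and shifted by 0.09 in UUO-mouse lung (exact p = 0.6). Healthy kidney against healthy lung differed by -2.96 in Psmb10 over Psmb7 and by -3.03 in Psmb8 over Psmb5. With 3 samples against 3 or 2, the exact permutation test cannot go below p = 0.1, which each pair without overlap reached, and over the 12 tests the adjusted p of these was 0.133.

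**Figure D4:**
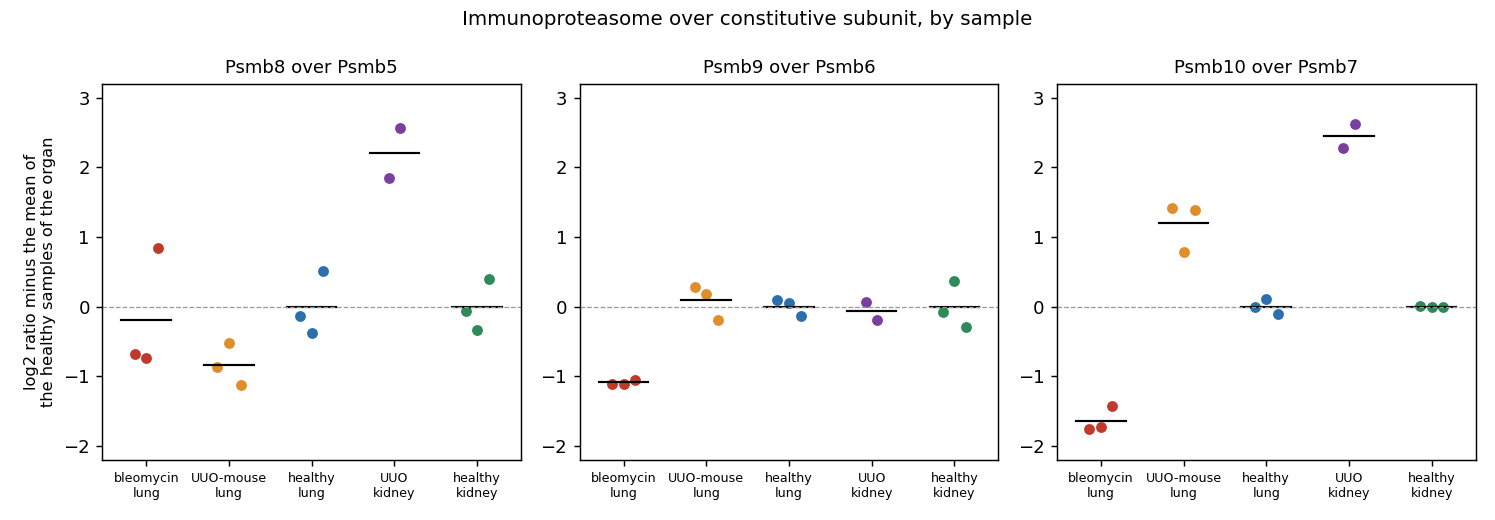
Log2 ratio of each immunoproteasome subunit to the constitutive subunit it replaces, minus the mean of the healthy samples of the organ (y axis), for each sample (points) of the 5 groups, with group means (lines). Psmb10 over Psmb7 lies at -1.76 to -1.43 in bleomycin lungs, 0.79 to 1.41 in UUO-mouse lungs and 2.28 to 2.62 in UUO kidneys; Psmb9 was not above background in any kidney.

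Over the 5 groups, the group means of a gene spanned a median of 0.84 log2 units among the 41 genes and 1.34 among all genes. The span was narrowest for the ATPase Psmc2 (0.27) and widest for Psmb10 (2.60), followed by Psmd5 (2.23), Psmb8 (2.07) and Psmg1 (1.85). In order of group mean, Psmb10 was highest in UUO-mouse lung, then healthy lung, UUO kidney, bleomycin lung and healthy kidney. Psmd5 was highest in healthy kidney and bleomycin lung, whose samples overlapped (7.46 to 7.85 and 7.39 to 7.64), and low in the other 3 groups, whose samples also overlapped (5.3 to 5.95). Psmd12 was highest in bleomycin lung, then healthy kidney, and its other 3 groups lay between 9.2 and 9.83.

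For genes that were called, different probes mostly moved together in bleomycin lung and UUO kidney. In all, 19 of the 41 genes had further kept probes, 25 in number. For genes called in bleomycin lung, 15 of 16 further probes had the direction of the main probe, and 7 of 8 did in UUO kidney, but 4 of 8 in UUO-mouse lung. These counts leave out genes that were not called. Some of those had a further probe that passed in UUO kidney, among them Psmd7 (-1.42), Psmd10 (-0.85), Psme4 (-2.30) and Psmd1 (0.75). In bleomycin lung further probes of Psmg2 (0.68), Psmc2 (1.03), Psmc5 (0.40) and Psmd7 (1.31 and -0.69) did so. The second probe of Psmb10 changed by -0.70 in bleomycin lung, by 1.90 in UUO kidney and by 0.29 in UUO-mouse lung (adjusted p = 0.182). That of Psmb8 rose by 1.81 in UUO kidney (adjusted p = 0.000365). Psmd7 had further probes that went against its rise in UUO-mouse lung (-1.11 and -0.50, adjusted p = 0.00646 and 0.0411), and these disagreed in bleomycin lung as well (1.31 and -0.69).

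Genes of class I antigen processing, which use the peptides that the immunoproteasome makes, moved in both injured organs. In UUO kidney 7 of 11 measured genes rose and 1 fell (median 0.73), and in bleomycin lung 3 rose and 5 fell (median -0.37). Over all genes 26% rose and 16.9% fell in UUO kidney, and 21.3% rose and 21.8% fell in bleomycin lung. Tap1, a subunit of the peptide transporter in the membrane of the endoplasmic reticulum, had 6.58 and 6.5 in UUO kidney, against 5.23, 4.72 and 4.93 in healthy kidney, where no sample was above background, and was at least 1.73-fold higher (adjusted p = 7.21e-05). It did not pass in bleomycin lung (-0.31 ± 0.18, adjusted p = 0.18). Its partner Tap2 had 8.36, 8.17 and 8.59 in bleomycin lung, against 9.79, 9.97 and 9.34 in healthy lung, and fell by 1.32 (SE 0.19, adjusted p = 0.00022). In UUO kidney Tap2 rose by 0.73 ± 0.21 (adjusted p = 0.0149). The class I heavy chain H2-K1 fell by 1.03 in bleomycin lung (adjusted p = 0.000886) and rose by 1.16 in UUO kidney (adjusted p = 0.000781). The chaperone Calr went the other way, with a rise of 1.68 in bleomycin lung (adjusted p = 0.000131) and a fall of 2.25 in UUO kidney (adjusted p = 2.56e-05). Nlrc5, an activator of class I genes, fell by 0.72 in bleomycin lung (adjusted p = 0.0209), rose by 1.36 in UUO-mouse lung (adjusted p = 0.00563) and was at least 2.12-fold higher in UUO kidney (adjusted p = 4.83e-05).

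Of 13 measured genes of interferon signalling, 8 rose and none fell in UUO kidney (limma, 0 lower also at an unadjusted p under 0.05; median 1.02), while 2 rose and 4 fell in bleomycin lung (median -0.34) and none passed in UUO-mouse lung (limma, 2 higher at an unadjusted p under 0.05). Irf1, a transcription factor induced by interferon gamma, had 11.16, 11.09 and 11.52 in bleomycin lung, against 12.5, 12.21 and 12.3 in healthy lung, and fell by 1.08 (SE 0.18, adjusted p = 0.000575). In UUO kidney it had 10.82 and 11.25, against 9.36, 9.78 and 9.83 in healthy kidney, and rose by 1.38 ± 0.20 (adjusted p = 0.000198). Its samples did not overlap in either comparison. In healthy kidney 10 of the 13 genes were lower than in healthy lung, against 36.9% of all genes. For the injured organs, the shares of all genes were 26% higher and 16.9% lower in UUO kidney, and 21.3% and 21.8% in bleomycin lung. Of 16 measured partners of the ubiquitin and proteasome system, 3 rose and 2 fell in bleomycin lung, and 5 rose and 1 fell in UUO kidney. These counts stand against the same shares of all genes. Changes of the 16 partners ran from -0.97 to 1.10 in bleomycin lung and from -1.07 to 1.47 in UUO kidney. Among the 5 that rose in UUO kidney was Nfe2l1, a transcription factor known to drive constitutive proteasome genes (1.09, adjusted p = 0.00011). Its part in the proteasome results was not tested.

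Counts of calls moved with the scaling of the arrays. Over all genes, the share of rises among calls in bleomycin lung was 49.5% as reported, 75.1% after median scaling and 87.1% in the deposited matrix values. The same shares were 60.6%, 78% and 34.6% in UUO kidney, 53.5%, 3.3% and 15.8% in UUO-mouse lung, and 44.7%, 35.7% and 64.7% for healthy kidney against healthy lung. For the difference of effects they were 39.8%, 42.5% and 84.2%. Relative to the median of all genes, the median of the 41 genes in bleomycin lung was 0.50 as reported, 0.61 with median scaling and 0.56 with the matrix values, and in UUO kidney it was -0.09, -0.16 and -0.21. All 11 constitutive 20S subunits stood above 0 in bleomycin lung in each of these 3, and 10, 11 and 11 passed. In UUO kidney 3, 1 and 7 of the 11 fell.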

How the data were processed

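Total RNA (TRIzol) of 14 lungs and kidneys was measured on 15 Illumina arrays, per the labels. The authors deposited raw signal intensities of probes, each with a deposited detection p-value; the submitters' processing notes name GenomeStudio 5.0. The deposited matrix values are background-subtracted intensities of unknown scaling, and they served as an alternative (floored at 16, then log2).

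Signals were background corrected with neqc (limma 3.58.1 under R 4.3.3, with an offset of 16 and with the negative controls inferred by way of detection p) and quantile normalized over all arrays, and replicate 2 of UUO-mouse lung, hybridised to 2 arrays (correlation 0.9708), was averaged. Probes with detection p under 0.01 in 2 or more samples were kept, and the brightest stood for its gene. The linear model had 5 group means, was fitted to 11648 genes and was moderated with eBayes (9 residual and 3.06 prior degrees of freedom), with Benjamini-Hochberg adjustment per comparison at 0.05. The method was tested on simulated data. A gene at a detection p of 0.01 or more in all samples of a group is given as a bound there, set by the higher, per array, of its own value and the lowest value above background, and written as at least N-fold. Such a bound holds for the processing used here only. Precision is limited by the number of arrays.

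The genes named were the catalytic subunits and activators, the 5 largest and 5 smallest changes that passed, the extremes of a role, and up to 3 each way per other list, with Tap1, Tap2, Irf1 and Ptprc always. Larger sets are given in part. The members, roles and lists were chosen with earlier results of these data known. Replicate numbers match across organs for only some of the 4 mice with both organs. Between the organs of these 4 mice, the correlation of deviations from group means was -0.122 to 0.185. Promoters are from a RefSeq table. Figures were drawn with Python 3.11.15 and matplotlib 3.10.9.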

Additional observations from a re-analysis of the deposited data

Results flagged for a closer look

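The effect of bleomycin in the lung and that of UUO in the kidney differed for 22 of the 41 genes by the interaction term of limma (adjusted p under 0.05 over all genes), which is what singled them out. The values are log2 differences, bleomycin effect in lung minus UUO effect in kidney. Positive differences were found for the constitutive 20S subunits Psma4 (1.06), Psma7 (1.02), Psmb1 (1.37), Psmb3 (0.88), Psmb4 (0.58), Psmb5 (1.16) and Psmb7 (1.47). They were also found for the 19S subunits Psmc1 (1.28), Psmc4 (0.60), Psmd11 (1.79), Psmd12 (2.01), Psmd14 (1.39), Psmd2 (1.82) and Psmd8 (0.99), for the assembly chaperones Psmd5 (4.13), Psmd9 (0.71) and Psmg1 (1.54), and for the activator Psme2 (1.49). The value of Psmd2 is the fitted one, since its probe was above background in no healthy lung and no UUO kidney. Its bound under the processing used here is at least 2.66-fold. Over the alternatives the fitted value ranged from 0.72 to 3.12. Negative differences were found for the immunoproteasome subunits Psmb10 (-2.62) and Psmb8 (-1.23) and for the activators Psme1 (-1.53) and Psme3 (-0.88). The differences of Psmb8 and Psme3 did not pass in 3 of 28 alternatives each, among them the matrix values (-0.50 and -0.05). That of Psmb4 did not pass in 4 of 28 (limma, adjusted p up to 0.0914). Without the 3 lungs with transcripts of another organ, those of Psmb8 (-0.96), Psmb5 (0.93), Psmc4 (0.57), Psmd8 (0.88) and Psmd9 (0.66) did not pass. The injuries, the organs and the injured mice differ together between these effects and cannot be told apart. The healthy lungs and healthy kidneys came from the same mice, a pairing that the main fit did not use.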

How the results depend on the processing

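All values were recomputed under 15 other settings and with each of 14 samples left out, 1 setting (the second brightest kept probe) chosen after seeing the data. Psmb10, Psmb8 and Psme1 in UUO kidney passed in all of these, and 21 to 37 genes were higher in bleomycin lung. In bleomycin lung 0 genes were lower with median scaling and with the matrix values (limma, 1 and 0 at an unadjusted p under 0.05), 1 without the 3 lungs with transcripts of another organ, and 1 to 3 with a sample left out (1 without bleomycin lung replicate 1 or healthy lung replicate 1). In UUO-mouse lung 0 were higher with median scaling (limma, 1 unadjusted) and without the 3 lungs (6 unadjusted), 2 with the matrix values and 1 to 7 with a sample left out (1 or 2 without healthy lung replicate 1 or 3 or UUO-mouse lung replicate 1 or 3). In that comparison 4 were lower with median scaling, 1 each with the mean of all probes, only the groups compared and the first array of replicate 2, 0 without the 3 lungs (limma, 3 unadjusted) and 0 to 2 with a sample left out (0 without the same 4 samples, 2 to 4 unadjusted). In UUO kidney 3 were higher with the matrix values and with only the groups compared, and 3 to 7 with a sample left out (3 without UUO kidney replicate 2 or healthy kidney replicate 1). There 3 were lower with median scaling, 20 with the matrix values, and 4 to 9 with a sample left out (4 without UUO kidney replicate 2). With the matrix values 34 were higher in healthy kidney than in healthy lung, and 35 higher and 2 lower in the difference of effects. The cause of these shifts was not tested.

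Single values turned sign for Psme1 in bleomycin lung (0.03 with median scaling, 0.21 with matrix values, 0.31 with the second probe) and, in UUO-mouse lung, for Psmb8 (0.21), Psmc5 (-0.37) and Psmd7 (-1.11) with the second probe and Psmd7 (-0.38) with the mean of probes. Psmb8 over Psmb5 in bleomycin lung was 0.31 without the 3 lungs and -0.71 to 0.08 with a sample left out, and 0.34 in UUO-mouse lung with the second probe. Psmb9 over Psmb6 in UUO-mouse lung was -0.18 with matrix values, -0.07 without the 3 lungs and -0.01 to 0.23 with a sample left out. The replicate number as a block pairs the organs of only some of the mice. With this block, 25 genes were higher and 2 lower in bleomycin lung, and 4 higher and 7 lower in UUO kidney. In UUO kidney, Psmd11 (adjusted p = 0.0517), Psme2 (0.0778), Psme3 (0.0527) and Psmd4 (0.0542) no longer passed under this block. Under it Psmb9 (0.0521) and Psmc3ip (0.0656) in bleomycin lung, Psmb6 (0.0659) and Psme4 (0.0606) in healthy kidney against healthy lung, and Psmd9 in the difference of effects (0.0708) did not pass either, and Psmc1 in healthy kidney did (0.0444). With the animal as a random block (correlation 0.0788) the counts were 26 and 3, and 7 and 9. Low signal limits Psmb9, Psmd2, Psmd5 and Psmd6.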
